A study of Homo sapiens with 48 samples.

Results

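The 8 genes described here supply, activate and recycle ubiquitin: UBB and RPS27A, which encode ubiquitin precursors, UBA1 and UBA6, the enzymes that activate ubiquitin, and the deubiquitinases USP14, UCHL5, UCHL1 and UCHL3. They were chosen by symbol and each has 1 row of the 33892 rows in the deposited count matrix. Their RNA was counted in 48 libraries of 8 established human cancer cell lines. RKO and DLD-1 come from colon cancer, H-23 and H-1299 from lung cancer, PANC-1 and CAPAN-2 from pancreatic cancer, and H-929 and RPMI from multiple myeloma. Each line received carfilzomib, an irreversible inhibitor of the proteasome, for 24 h, at the dose that gave the IC50 of proteasome activity in that line, or received DMSO, the solvent. There are 3 biological replicates in each of the 16 groups, the cells grew in flat culture by standard protocols, and no group carries another agent or allele. The concentrations were not used here, so equal inhibition is taken from the labels and was not measured in these libraries. Each line is 1 model of its tumour type.

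Ubiquitin is never made as a free protein. UBB encodes a chain of ubiquitin repeats, while RPS27A encodes ubiquitin fused to a ribosomal protein, and deubiquitinases release the single units. An E1 enzyme then activates ubiquitin with ATP and passes it to E2 enzymes, which work with E3 ligases to tag proteins for the proteasome. When the proteasome takes up a tagged protein, the deubiquitinases bound to it cut the chain off so that ubiquitin can be used again, and inhibition of the proteasome holds ubiquitin in conjugates.

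The 250 bases upstream of the most upstream start listed for each gene by RefSeq (GRCh38.p14) were searched on both strands for binding motifs of stress-responsive factors. The core of the antioxidant response element, TGACNNNGC, stood in the windows of USP14 and UCHL3, and in 10.9% of 35116 RefSeq promoter windows of the same length. The 30 bases around each match are shown because USP14 rose in 4 lines and fell in none, while UCHL3 rose in 1 and fell in 2. Capitals mark the match.
USP14, chr18:158521-158550, plus strand: tttgcgtgttGCTGCGTCAtcgccagtggc
UCHL3, first match, chr13:75549415-75549444, plus strand: cgcagtcggtTGACACTGCaagaatgggaa
UCHL3, second match, chr13:75549443-75549472, plus strand: aaggtgcgggTGACCACGCggtcccagacc
The USP14 match, which reads as the reverse complement GCNNNGTCA, began 26 bases before the RefSeq start and the UCHL3 matches 77 and 49 bases before theirs. GENCODE release 29 starts USP14 at 158383, where RefSeq's start is at 158557, so by GENCODE that match lies inside the gene. Neither the 3-unit heat shock element (in 0.441% of all windows) nor its shorter form GAANNTTC (11.6%) was present in any of the 8 windows. For UBB that window lies downstream of the gene start in GENCODE release 29, which is at 16380798 where RefSeq's is at 16381290. The same holds for UCHL1, with a GENCODE start at 41256413 and RefSeq's at 41256928. For both genes the stretch before the longer transcripts was not searched. A match of letters describes the sequence and is not a measured binding site.

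Library totals ran from 9.12 M to 64.4 M counts with a median of 28.8 M, and counting error was exceeded between the replicates of each group. Levels are given in CPM, the count for each 1 M counts of the library, after TMM scaling, which adjusts each library for its overall composition. In DMSO, both myeloma lines held all 7 plasma cell markers above 1 CPM, and the pancreatic lines held all 5 duct markers, of which PDX1 was under 1 CPM in CAPAN-2 after carfilzomib. The lung label had less support in H-1299, where none of 4 lung markers reached 1 CPM in DMSO. Of 4 general epithelial markers in those libraries, KRT8 and KRT18 exceeded 1 CPM, while EPCAM and CDH1 did not. RKO held 1 of 6 colon markers. Counting error is small for 7 of the 8 genes and large for UCHL1 in the lines where it is scarce. Whether the counting used strand is not given in the sources used here, so reads of USP14 and THOC1, of UCHL5 and RO60, and of RPS27A and CLHC1, which overlap on opposite strands, may be mixed. The 5 UBB pseudogene rows summed to 0.116% to 8.94% of UBB, and the 10 RPS27A pseudogene rows to 2.96% to 8.02% of RPS27A, so reads may be split between these near-identical copies.

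The first question was which of the 8 genes changed in which line. Of 62 pairs of a gene and a line that could be tested, 22 were higher after carfilzomib and 14 lower, at an adjusted p under 0.05 in edgeR's quasi-likelihood test on the 6 libraries of a line. Over all genes and lines, 20.8% of pairs were higher and 21.1% lower. UBB changed in every line, in opposite directions. UCHL1 rose in each of the 6 lines where it could be tested, though PANC-1 and RPMI passed the filter only through high carfilzomib libraries. USP14 rose in 4 lines, as 17.9% of genes tested in every line did in 4 or more, and fell in none. UBA1 rose in none and fell in 3, most in the myeloma lines. In RKO, 0 of the 7 members tested rose and 1 fell, where 3.62% of all genes tested were higher and 5.29% lower. DLD-1 had 0 of 7 higher and 2 lower (10.9% of all genes tested were higher and 12.1% lower). The solid tumour lines other than colon had more rises than falls. In H-23, 4 of 8 members rose and 1 fell (17.7% of all genes tested were higher and 16.2% lower), and PANC-1 had 4 higher and 2 lower (20.5% of all genes tested were higher and 18.2% lower). H-1299 had 4 higher and 0 lower of 8 (29.8% of all genes tested were higher and 31.3% lower), as did CAPAN-2 (25.7% of all genes tested were higher and 26.7% lower). The myeloma lines had the most falls, with 2 of 8 higher and 4 lower in H-929 (26.4% of all genes tested were higher and 26.2% lower) and 4 of 8 higher and 4 lower in RPMI (31.3% of all genes tested were higher and 32.2% lower). In the myeloma lines, H-1299 and CAPAN-2 most genes were called, so a call there sets a member apart less than it does in RKO. These are bulk samples, in which fewer cells of a kind and less RNA per cell cannot be told apart.

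**Figure D1:**
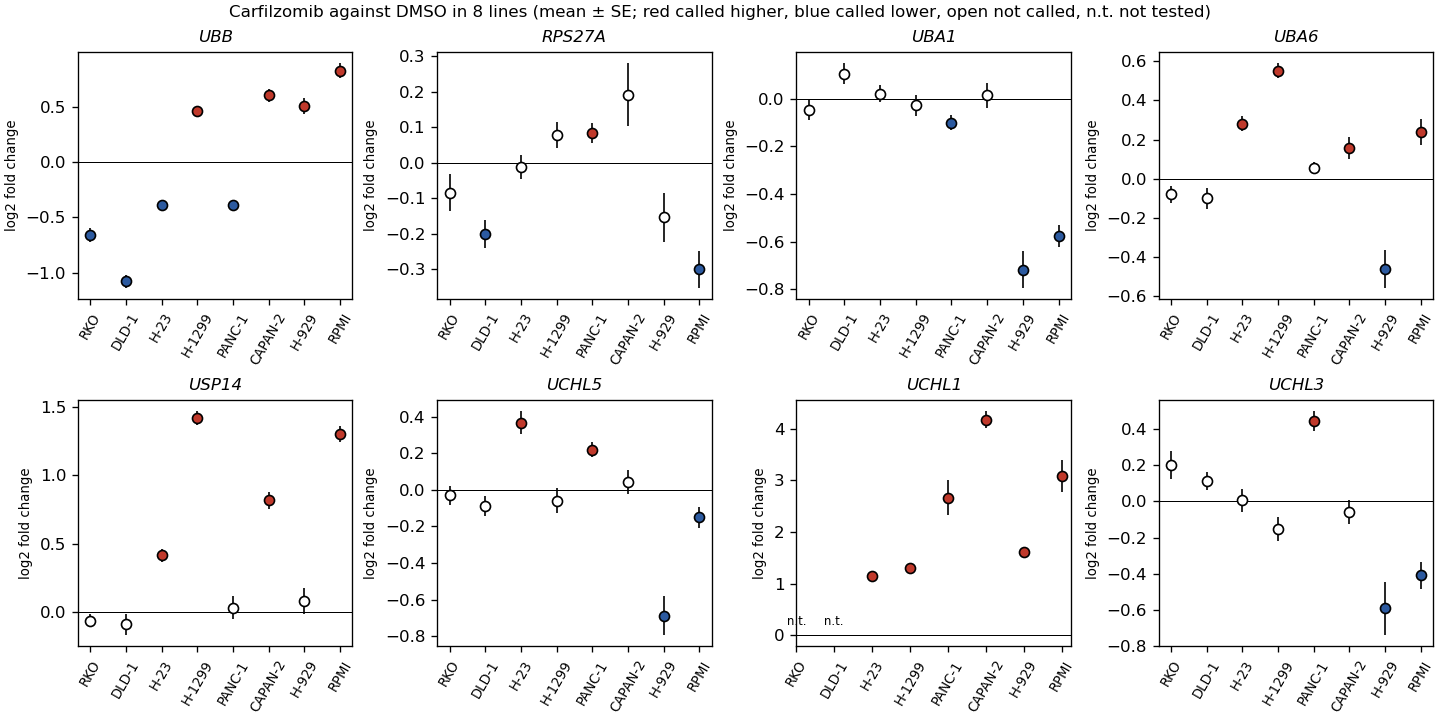
Log2 fold changes of the 8 genes, carfilzomib over DMSO, in each of the 8 lines (edgeR, 3 libraries per group, error bars are 1 SE, red points are called higher and blue points lower at an adjusted p under 0.05, and n.t. marks a line where the gene was not tested). UBB lies below 0 in 4 lines and above 0 in 4, UCHL1 lies above 0 in the 6 lines where it was tested, and USP14 has its highest values in H-1299 and RPMI.

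UBB (ENSG00000170315, chr17:16380798-16382745, plus strand, GENCODE release 29 on GRCh38) is the polyubiquitin gene that cells induce under several kinds of stress. It was higher after carfilzomib in RPMI, CAPAN-2, H-929 and H-1299 and lower in RKO, DLD-1, H-23 and PANC-1. Its DMSO libraries in RPMI held 429.8, 401 and 408 CPM and its carfilzomib libraries 662, 741 and 799.9 CPM, a log2 fold change of 0.83 ± 0.067 (SE). CAPAN-2 went from 365, 372 and 339 CPM to 542, 560.0 and 533 CPM, a log2 fold change of 0.60 ± 0.056 (SE). In these lines, 1 a myeloma and 1 a pancreatic line, every treated library exceeded every control. H-929 gave 669.8, 681 and 693 CPM in DMSO and 1002, 891 and 1021 CPM in carfilzomib (log2 fold change 0.51 ± 0.072 (SE)). H-1299 gave 849, 868 and 889 CPM and 1225, 1225 and 1139 CPM (log2 fold change 0.46 ± 0.041 (SE)).

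The colon lines moved the other way. In DLD-1, UBB fell from 538, 498 and 507 CPM in DMSO to 262, 241 and 228 CPM in carfilzomib, a log2 fold change of -1.08 ± 0.056 (SE), and this was its largest change in size among the 8 lines. RKO fell from 992, 863 and 950.3 CPM to 616, 619 and 540.3 CPM (log2 fold change -0.66 ± 0.061 (SE)). RKO is the line with the fewest calls, and UBB was the 1 member called there. H-23 fell from 879.8, 877 and 883 CPM to 662, 683 and 678 CPM (log2 fold change -0.38 ± 0.027 (SE)). PANC-1 fell from 546, 526 and 532 CPM to 432, 388 and 404 CPM (log2 fold change -0.39 ± 0.037 (SE)). The lines of 1 tissue thus split in lung and in pancreas, while both colon lines fell and both myeloma lines rose. Adjusted p-values of the 8 tests ran from 1.21e-07 to 3.92e-05. The treated and control libraries did not overlap in any line. Groups were also apart for 28.2% of tested genes in RKO, 39.9% in DLD-1, 45.7% in H-23, 66.2% in H-1299, 49.6% in PANC-1, 59.3% in CAPAN-2, 59.4% in H-929 and 68.2% in RPMI. A call in each direction, in different lines, was found for 47.8% of the genes that all 8 lines could test.

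**Figure D2:**
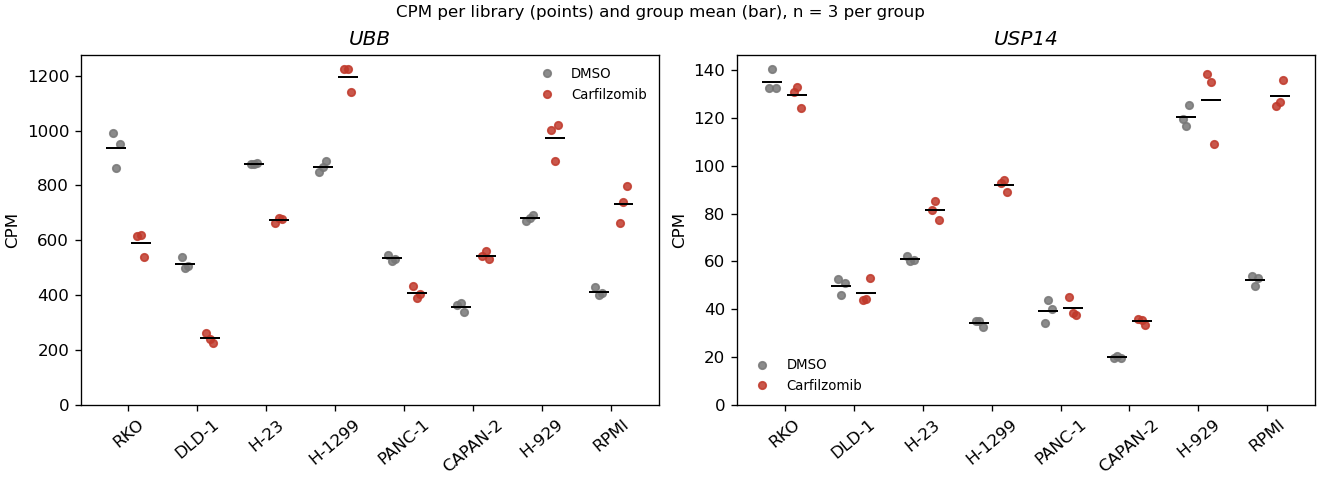
CPM of UBB and USP14 in every library (points) with the group mean (bars), DMSO beside carfilzomib, in the 8 lines (n = 3 libraries per group, scaled within each line). For UBB the treated points lie below the controls in RKO, DLD-1, H-23 and PANC-1 and above them in the other 4 lines, and for USP14 the groups separate in H-23, H-1299, CAPAN-2 and RPMI.

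RPS27A (ENSG00000143947, chr2:55231903-55235853, plus strand) encodes ubiquitin fused to a protein of the small ribosomal subunit and moved least of the 8 genes. It was lower in RPMI, from 1217, 1286 and 1229 CPM in DMSO to 1022, 1046 and 963 CPM in carfilzomib, a log2 fold change of -0.30 ± 0.052 (SE, adjusted p = 0.000177). It was lower in DLD-1 (-0.20 ± 0.040 (SE, adjusted p = 0.00475)) and higher in PANC-1 (0.08 ± 0.028 (SE, adjusted p = 0.0332)). The call in DLD-1 was lost without replicate 2 of both groups (adjusted p = 0.0587). The call in PANC-1 was lost without any 1 replicate number and without 4 of the 6 single libraries (DMSO replicates 2 and 3, carfilzomib replicates 1 and 3), with log2 fold changes from 0.07 to 0.10 and adjusted p up to 0.201. In CAPAN-2, where DMSO replicate 3 held 428 CPM against 571 and 560.3 CPM in the others, the log2 fold change of 0.19 ± 0.089 (SE, adjusted p = 0.0865) was not called, and it was called without DMSO replicate 1 or 2, with values up to 0.30 over all such fits. H-929 (-0.15 ± 0.068 (SE, adjusted p = 0.0716)) and H-1299 (0.08 ± 0.037 (SE, adjusted p = 0.0899)) were not called, and each was called in some fits without 1 library (H-929 without DMSO or carfilzomib replicate 3, down to -0.23, and H-1299 without DMSO replicate 2, with values up to 0.11 over all such fits).

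UBA1 (ENSG00000130985, chrX:47190861-47215128, plus strand) is the E1 enzyme that charges most of the ubiquitin in the cell. It was lower after carfilzomib in both myeloma lines and, by a small amount, in PANC-1. In H-929 the DMSO libraries held 347, 368 and 333 CPM and the carfilzomib libraries 227, 206 and 204 CPM, a log2 fold change of -0.72 ± 0.076 (SE, adjusted p = 2.69e-06). In RPMI they held 561, 567 and 558 CPM and 383, 380.0 and 368 CPM, a log2 fold change of -0.58 ± 0.048 (SE, adjusted p = 1.80e-07). The lowest control exceeded the highest treated library by a wide margin in both lines. Groups were also apart, in either direction, for 59.4% of tested genes in H-929 and 68.2% in RPMI. In PANC-1 the libraries held 329, 319 and 324 CPM and 314, 300.0 and 293 CPM, and the log2 fold change of -0.10 ± 0.033 (SE, adjusted p = 0.0274) lost its call in fits without 1 library (DMSO replicate 1 or 3, carfilzomib replicate 2 or 3) or without replicate 2 or 3, with adjusted p up to 0.186. In the other 5 lines UBA1 had log2 fold changes from -0.05 to 0.11 and was not called, while library totals in place of TMM gave calls in DLD-1 (0.14, adjusted p = 0.034) and H-1299 (-0.14, adjusted p = 0.0127).

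UBA6 (ENSG00000033178, chr4:67612652-67701179, minus strand), the other E1 for ubiquitin, which also activates the ubiquitin-like protein FAT10, was higher in H-23, H-1299, CAPAN-2 and RPMI and lower in H-929. Its largest rise was in H-1299, where DMSO libraries held 164, 166 and 168 CPM and carfilzomib libraries 246, 241 and 243 CPM (log2 fold change 0.55 ± 0.038 (SE, adjusted p = 6.33e-08)). H-23 went from 205, 211 and 204 CPM to 238, 255 and 258 CPM (log2 fold change 0.28 ± 0.038 (SE, adjusted p = 6.73e-05)). In H-929 it went from 68.7, 66.5 and 69.7 CPM to 53.3, 50.2 and 45.3 CPM (log2 fold change -0.46 ± 0.097 (SE, adjusted p = 0.00114)). The groups did not overlap in these 3 lines, in RPMI and CAPAN-2, or in PANC-1, where UBA6 was not called. That held for 45.7% to 68.2% of all genes tested in those lines. The myeloma lines differed, since RPMI was at 0.24 ± 0.065 (SE, adjusted p = 0.00573). That call was lost without replicate 2 or replicate 3 of both groups, with log2 fold changes from 0.18 to 0.33 over all fits that left out libraries and adjusted p up to 0.0964. The call in CAPAN-2 (0.16 ± 0.057 (SE, adjusted p = 0.031)) was lost without replicate 1 or 2 of both groups, or without carfilzomib replicate 1 or 2 alone (adjusted p up to 0.14). In H-929, UBA1 and UBA6 fell together.

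Among 8 other E1 and E1-like enzymes, none was higher and 4 were lower on average over the 8 lines in the joint fit, in which 19.8% of all genes were higher and 23.9% lower. UBA7, the E1 of the ubiquitin-like protein ISG15, was called lower in H-23 alone, at -1.13 ± 0.255 (SE) on the log2 scale from 1.78 CPM. Of 30 genes of the ubiquitin E2 family, 12 were higher and 9 lower on average, and their median log2 change was 0.04 beside 0.02 for all genes. The largest called average rise was that of UBE2V1, a partner of UBE2N in making chains through lysine, at 0.30 ± 0.048 (SE). The largest fall was that of UBE2J1, an E2 of the endoplasmic reticulum, at -0.41 ± 0.021 (SE). CAPAN-2 had 22 of the 30 E2 genes higher and 2 lower, against 25.7% and 26.7% of all genes. H-1299 had 18 higher and 5 lower (29.8% and 31.3% of all genes), and H-23 had 15 higher and 3 lower (17.7% and 16.2%). H-929 was the line with more falls than rises by the widest margin, with 2 higher and 16 lower (26.4% and 26.2%), while the other myeloma line, RPMI, had 12 higher and 9 lower (31.3% and 32.2%). PANC-1 had 9 higher and 1 lower (20.5% and 18.2%), DLD-1 had 4 higher and 6 lower (10.9% and 12.1%), and RKO had 0 of 29 higher and 4 lower (3.62% and 5.29%).

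USP14 (ENSG00000101557, chr18:158383-214629, plus strand) binds the proteasome reversibly and trims ubiquitin chains before a substrate is degraded. It was higher after carfilzomib in 4 lines and lower in none. In H-1299 the DMSO libraries held 34.96, 35.2 and 32.8 CPM and the carfilzomib libraries 92.6, 94.1 and 88.99 CPM, a log2 fold change of 1.42 ± 0.051 (SE, adjusted p = 3.32e-10). In RPMI they held 53.8, 49.9 and 53.2 CPM and 125, 126 and 136 CPM, a log2 fold change of 1.30 ± 0.057 (SE, adjusted p = 3.51e-10). Every treated library in these lines stood far above the highest control. CAPAN-2, with the lowest DMSO level of the 8 lines, went from 19.6, 20.4 and 19.8 CPM to 36.02, 35.7 and 33.6 CPM (log2 fold change 0.82 ± 0.064 (SE, adjusted p = 7.70e-08)). H-23 went from 62.1, 60.3 and 60.6 CPM to 81.4, 85.4 and 77.2 CPM (log2 fold change 0.41 ± 0.045 (SE, adjusted p = 7.99e-06)). The groups did not overlap in these 4 lines, as for 45.7% to 68.2% of all genes tested in them.

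USP14 was not called in the other 4 lines, and its groups overlapped there. RKO held 133, 140.2 and 133 CPM in DMSO and 131, 133 and 124 CPM in carfilzomib (log2 fold change -0.06 ± 0.047 (SE, adjusted p = 0.471)). DLD-1 gave a log2 fold change of -0.09 ± 0.078 (SE, adjusted p = 0.461). PANC-1 held 34.4, 43.96 and 40.1 CPM and 45.1, 38.5 and 37.8 CPM, so the replicates spread more than the groups differed (0.03 ± 0.084 (SE, adjusted p = 0.796)). H-929 held 119.6, 116 and 125 CPM and 138, 135 and 109 CPM, with 2 of the 3 treated libraries above all controls and 1 below (0.08 ± 0.095 (SE, adjusted p = 0.501)). The myeloma lines therefore had different results, 1 called and 1 not.

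UCHL5 (ENSG00000116750, chr1:193012250-193060080, minus strand), also known as UCH37, is the proteasome-bound member of the UCH family and docks on the receptor ADRM1. It was higher in H-23 and PANC-1 and lower in H-929 and RPMI. In H-929 it went from 108, 106 and 100.4 CPM in DMSO to 68.3, 72.3 and 54.2 CPM in carfilzomib, a log2 fold change of -0.69 ± 0.106 (SE, adjusted p = 8.22e-05). H-23 went from 40.95, 45.8 and 44.3 CPM to 50.2, 60.96 and 56.8 CPM (log2 fold change 0.37 ± 0.065 (SE, adjusted p = 0.000567)). The change in PANC-1 was 0.22 ± 0.042 (SE, adjusted p = 0.00104). In these 3 lines and in RPMI the groups did not overlap, as for 45.7% to 68.2% of all genes tested in those lines. RPMI, where the level was highest, went from 177, 164 and 171 CPM to 155, 145 and 161 CPM (log2 fold change -0.15 ± 0.056 (SE, adjusted p = 0.0322)), and this call was lost without DMSO replicate 1 or 3 or carfilzomib replicate 1 or 2, and without replicate 1 or 2 of both groups (adjusted p up to 0.135). In RPMI, USP14 rose while UCHL5 fell. Library totals in place of TMM gave RPMI an adjusted p of 0.0509.

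The proteasome partners of USP14 and UCHL5 were called in more lines than either. PSMD14, the deubiquitinase subunit that removes whole chains, was higher in 7 lines, with log2 fold changes from 0.59 ± 0.035 (SE) in H-23 to 1.45 ± 0.070 (SE) in CAPAN-2, and was at -0.10 ± 0.053 (SE) in RKO, not called. ADRM1 was higher in the same 7 lines, from 0.23 ± 0.035 (SE) in H-23 to 0.96 ± 0.055 (SE) in RPMI, and was not called in RKO. In H-929, where UCHL5 fell, ADRM1 rose by 0.67 ± 0.077 (SE) on the log2 scale. Of the 9 proteasome receptors and shuttle factors on the list, 6 were higher and 3 lower on average over the lines. Of 6 other deubiquitinases, 2 were higher and 2 lower, and of 8 proteasome-associated and chain-extending ligases 4 were higher and 3 lower. On that average, 19.8% of all genes were higher and 23.9% lower.

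UCHL1 (ENSG00000154277, chr4:41256413-41268455, plus strand) is a deubiquitinase that is abundant in neurons and is thought to hold free ubiquitin. It was abundant in 3 lines and scarce in the other 5, and it rose in every line where it could be tested. In PANC-1 and RPMI it passed the filter for enough counts only because its carfilzomib libraries were high. Without a rise from those DMSO counts it would have gone untested there, so those calls depend on the filter. The test could have gone either way in CAPAN-2, H-1299, H-929 and H-23. Among genes tested in those 6 lines, 2.11% were called higher in all of them. In DMSO, H-1299 held 528, 526 and 541 CPM, H-929 265, 267 and 269.7 CPM and H-23 265, 252 and 261 CPM. After carfilzomib the same lines held 1269, 1322 and 1347 CPM, 797, 831 and 815 CPM and 578, 568 and 583 CPM. The replicates lay close together and the groups far apart in each of these lines. Groups did not overlap, in either direction, for 66.2% of tested genes in H-1299, 59.4% in H-929 and 45.7% in H-23. The log2 fold changes were 1.30 ± 0.039 (SE, adjusted p = 9.91e-11) in H-1299, 1.61 ± 0.067 (SE, adjusted p = 2.68e-10) in H-929 and 1.15 ± 0.032 (SE, adjusted p = 5.34e-11) in H-23.

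In the lines where UCHL1 is scarce, its changes rest on few reads. CAPAN-2 had 32, 19 and 28 counts in DMSO and 450, 412 and 340 in carfilzomib, or 0.813, 0.597 and 0.598 CPM and 11.3, 12.1 and 13.4 CPM, a log2 fold change of 4.18 ± 0.170 (SE, adjusted p = 1.41e-10). RPMI had 4, 14 and 14 counts and 61, 71 and 73, a log2 fold change of 3.10 ± 0.309 (SE, adjusted p = 1.08e-06). PANC-1 had 5, 4 and 11 counts and 40, 61 and 37, a log2 fold change of 2.66 ± 0.341 (SE, adjusted p = 4.73e-05). All treated libraries exceeded all controls, yet the treated level in CAPAN-2, the highest of these 3 lines, stayed far below the DMSO level of H-23. Groups did not overlap, in either direction, for 59.3% of tested genes in CAPAN-2, 68.2% in RPMI and 49.6% in PANC-1. RPMI and PANC-1 fell out of the test when a mean of at least 50 counts was required. DLD-1 had 3, 1 and 0 counts in DMSO and none in carfilzomib, where 0 counts over 3 libraries allow up to 0.0349 CPM (3 counts, counting error only). RKO had 2, 1 and 0 counts in DMSO and 1, 0 and 2 in carfilzomib, so a change in the colon lines was not detectable at this depth. UCHL1-AS1, which overlaps UCHL1 on the opposite strand, had 0 to 44 counts per library. Of 5 neuroendocrine markers, 1 exceeded 1 CPM in DMSO in each line, whether UCHL1 was abundant or scarce. It was SYP in H-1299, H-23, PANC-1, CAPAN-2 and DLD-1, NCAM1 in H-929 and RPMI, and INSM1 in RKO. The 5 markers summed to 288 to 303 CPM in H-929, 139.7 to 148 CPM in RPMI and 28.9 to 30.7 CPM in PANC-1, against 8.61 to 10.2 CPM in H-23 and 5.19 to 6.14 CPM in H-1299.

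**Figure D3:**
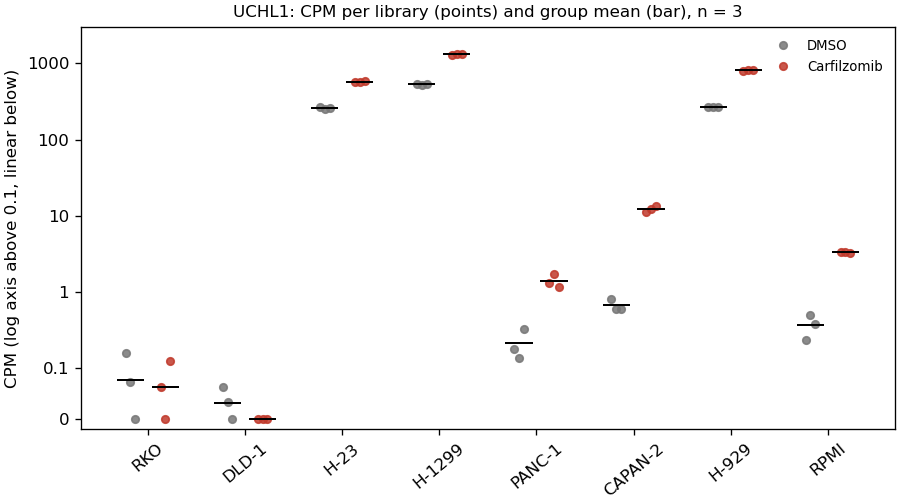
CPM of UCHL1 in every library (points) with the group mean (bars), DMSO beside carfilzomib (n = 3 libraries per group, scaled within each line, axis logarithmic above 0.1 CPM and linear below). H-23, H-1299 and H-929 lie above 200 CPM in DMSO, CAPAN-2, RPMI and PANC-1 lie below 1 CPM in DMSO and above it in carfilzomib, and the libraries of RKO and DLD-1 lie near 0.

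UCHL3 (ENSG00000118939, chr13:75549480-75606020, plus strand), a UCH enzyme that cuts small adducts from ubiquitin and from the ubiquitin-like protein NEDD8, was higher in PANC-1 and lower in the myeloma lines. In PANC-1 it went from 19.99, 20.6 and 20.5 CPM in DMSO to 27.9, 26.2 and 29.2 CPM in carfilzomib, a log2 fold change of 0.45 ± 0.056 (SE, adjusted p = 3.99e-05). H-929 went from 19.5, 19.3 and 22.4 CPM to 13.3, 14.4 and 12.8 CPM (log2 fold change -0.59 ± 0.148 (SE, adjusted p = 0.00377)). RPMI went from 49.03, 47.8 and 47.7 CPM to 33.2, 35.04 and 40.3 CPM (log2 fold change -0.41 ± 0.075 (SE, adjusted p = 0.000309)). None of these groups overlapped, as for 49.6% to 68.2% of all genes tested in those lines. In RKO, DLD-1 and H-1299 the groups did not overlap either, yet the changes of 0.20 ± 0.078 (SE, adjusted p = 0.135), 0.11 ± 0.051 (SE, adjusted p = 0.139) and -0.15 ± 0.066 (SE, adjusted p = 0.0591) were not called. Groups were apart for 28.2% of tested genes in RKO, 39.9% in DLD-1 and 66.2% in H-1299. BAP1, the nuclear member of the same family, was higher in 2 lines and lower in 3, with log2 fold changes from -0.39 ± 0.086 (SE) in H-929 to 0.20 ± 0.063 (SE) in CAPAN-2. Within the UCH family, then, UCHL1 was called higher in H-929 and UCHL3, UCHL5 and BAP1 were called lower.

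The next comparison asked whether the 8 lines responded alike, in 1 fit of all 48 libraries with a mean for each group. All 7 members that could be tested in every line differed between lines, as did 67.7% of all genes, with the largest F for UBB and the smallest for RPS27A. UCHL1 differed among the 6 lines where it was tested, as did 67.9% of genes. An average over lines describes genes of this kind poorly. USP14 averaged 0.45 ± 0.027 (SE) on the log2 scale and was the 1 member higher of the 7, while UBB (-0.05 ± 0.022 (SE)), RPS27A (-0.09 ± 0.022 (SE)), UBA1 (-0.21 ± 0.018 (SE)), UCHL5 (-0.09 ± 0.025 (SE)) and UCHL3 (-0.10 ± 0.027 (SE)) were lower, where 19.8% of all genes were higher and 23.9% lower. UBA6 averaged 0.04 ± 0.019 (SE) (adjusted p = 0.103). The UBB average (adjusted p = 0.0414) lost its call without any 1 replicate number, in 3 of 3 such fits, and became 0.09 and higher (adjusted p = 0.000698) without DLD-1. With library totals in place of TMM, the averages of UBB (-0.02), UCHL5 (-0.06) and UCHL3 (-0.06) were not called and that of UBA6 (0.07, adjusted p = 0.000575) was. The UCHL5 and UCHL3 averages also lost their calls without H-929 (0.02 and -0.01), those of RPS27A and UCHL3 without RPMI (-0.06 and -0.05), and UBA6 was called higher without RKO, DLD-1 or H-929 (0.06, 0.06 and 0.13). The UCHL3 average lost its call in 1 of 3 fits without a replicate number (adjusted p = 0.0662). UCHL1 averaged 2.27 ± 0.061 (SE, adjusted p = 3.76e-31) over its 6 lines, of which PANC-1 and RPMI passed the filter only through high carfilzomib libraries. On that average 22.5% of genes were higher. These errors come from replicates within a line. With the 8 lines as the units (limma), no average of the 7 members was called, USP14 giving 0.49 with an adjusted p of 0.162, and 102 of 11622 genes were called, with 2755 at an unadjusted p under 0.05.

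The 2 myeloma lines were then set against the other 6. Of the 7 members, 5 had a lower effect in the myeloma lines and the other two a higher one, where 25.2% of all genes were lower and 19.1% higher. The difference in log2 fold change, myeloma minus other, was -0.75 ± 0.041 (SE) for UBA1, -0.70 ± 0.067 (SE) for UCHL3, -0.60 ± 0.058 (SE) for UCHL5, -0.36 ± 0.047 (SE) for UBA6 and -0.34 ± 0.052 (SE) for RPS27A. It was 0.81 ± 0.051 (SE) for UBB and 0.16 ± 0.062 (SE) for USP14. Against the fits of single lines, the joint fit shifted the median gene by -0.163 in H-929 and -0.080 in RPMI. That shift ran from -0.069 in H-1299 to 0.018 in CAPAN-2 among the other lines, so the joint differences are pulled down. From the single-line fits they were -0.64, -0.59, -0.49, -0.25 and -0.24 for those 5 genes in order, 0.91 for UBB and 0.27 for USP14. The USP14 difference (adjusted p = 0.0288) lost its call without replicate 1 or 2, and its myeloma lines went apart, RPMI at 1.30 and H-929 at 0.08. They also went apart for UBA6, called lower in H-929 (-0.46) and higher in RPMI (0.24). UCHL1 in the myeloma lines did not pass the test against the other 4 lines where it was tested (-0.08 ± 0.159 SE, adjusted p = 0.829), where 20.9% of genes were higher and 25.4% lower. Each side held a line, RPMI or PANC-1, that passed the filter only through high carfilzomib libraries. The myeloma lines also lay apart, H-929 at 1.61 and RPMI at 3.10, so no conclusion is drawn from that test. With lines as the units (limma), UBA1 was the 1 member of the 7 that kept its call (-0.64, adjusted p = 0.0304). In that test 1153 of all 11622 genes were called, so 1 call among 7 members does not set them apart. Tumour type cannot be told apart from what else the 2 myeloma lines share.

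Untreated levels were compared per kilobase of exon, from GENCODE release 29, and on 1 scale for all libraries. UBB and RPS27A were the highest of the 8 genes in every line, with DMSO means of 239 to 582 CPM per kb for UBB and 179.7 to 448 for RPS27A. UBA1 lay between 39.1 and 98.4 CPM per kb and exceeded UBA6, at 6.44 to 30.8, in every line. USP14 lay between 3.60 and 21.7, UCHL5 between 5.92 and 28.9, and UCHL3 between 10.6 and 28.5 CPM per kb. The length is the union of exons over all transcripts, so it exceeds that of the main transcript.

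**Figure D4:**
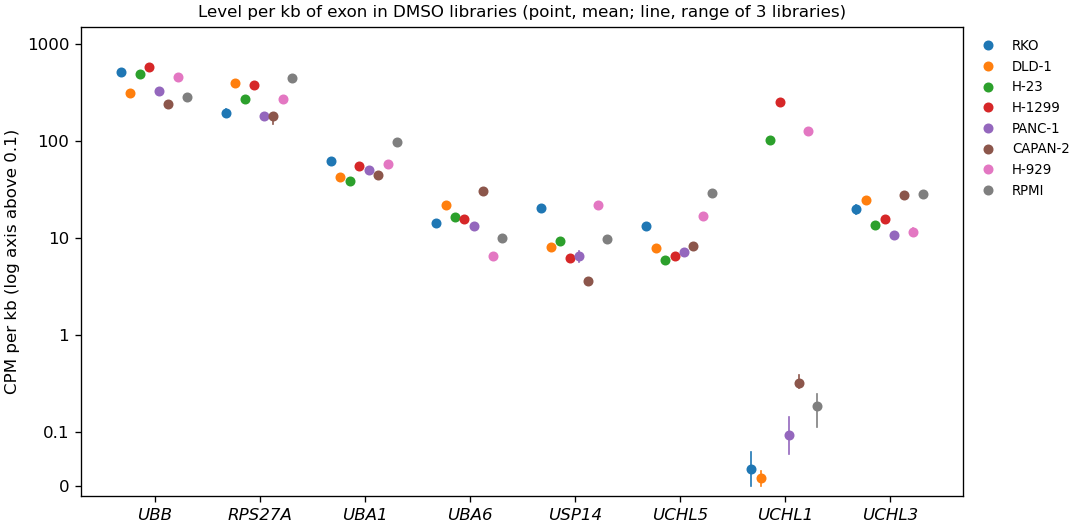
Mean DMSO level of the 8 genes in each line in CPM per kb of exon (n = 3 libraries per point, vertical lines give the range, axis logarithmic above 0.1 and linear below, 1 scale for all libraries). UBB and RPS27A form the upper band above 100 CPM per kb, and UCHL1 spans from under 1 to above 200 CPM per kb.

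The order of lines differed from gene to gene. All 8 genes differed in DMSO level across lines in the joint fit, as did 97.6% of all genes. USP14 was highest in H-929 (130.0 ± 3.96 CPM, SD, n = 3) and RKO (121 ± 3.55 CPM), followed by RPMI, H-23, DLD-1, PANC-1 and H-1299, and was lowest in CAPAN-2 (21.6 ± 0.528 CPM), a 6.02-fold span. PANC-1 and H-1299 were the neighbours whose replicates overlapped. The 2 lines with the most USP14 in DMSO, H-929 and RKO, were among the 4 where it was not called after carfilzomib. DLD-1 (48.8 CPM) and PANC-1 (39.2 CPM), also not called, stood low in that order, while RPMI (59.0 CPM), next after RKO, was called higher. UBA6 ran the other way from USP14 at the ends, from 352 ± 18.6 CPM in CAPAN-2 through DLD-1, H-23, H-1299, RKO, PANC-1 and RPMI to 73.7 ± 1.29 CPM in H-929, with no overlap between neighbours. UCHL5 was highest in the myeloma lines, RPMI (192 ± 7.45 CPM) and H-929 (113 ± 4.90 CPM), followed by RKO, CAPAN-2, DLD-1, PANC-1, H-1299 and H-23 (39.4 ± 2.22 CPM). CAPAN-2 overlapped DLD-1 there, and PANC-1 overlapped H-1299.

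UBA1 stood highest in RPMI (633 ± 10.5 CPM), then in RKO, H-929, H-1299, PANC-1, CAPAN-2, DLD-1 and H-23 (252 ± 5.04 CPM), and RKO, H-929 and H-1299 overlapped in turn. UBB had a 2.43-fold span, from 943 ± 17.1 CPM in H-1299 through RKO, H-23, H-929, PANC-1, DLD-1 and RPMI to 388 ± 18.4 CPM in CAPAN-2, with overlaps of RKO with H-23 and of PANC-1 with DLD-1. RPS27A was highest in RPMI (1403 ± 47.9 CPM), followed by DLD-1, H-1299, H-929, H-23, RKO, PANC-1 and CAPAN-2 (562 ± 85.04 CPM), where H-929 overlapped H-23 and the last 3 lines overlapped in turn. UCHL3 was highest in RPMI (54.3 ± 0.675 CPM) and CAPAN-2, which overlapped, then in DLD-1, RKO, H-1299, H-23, H-929 and PANC-1 (20.2 ± 0.418 CPM), with H-23 and H-929 overlapping. UCHL1 fell into lines above 225 CPM in every DMSO library (H-1299, H-929, H-23) and lines under 1 CPM (CAPAN-2, RPMI, PANC-1, RKO, DLD-1). There is 1 myeloma line in each set.

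Among the members, the within-line log2 fold changes of USP14 ran along with those of UBA6 (r = 0.77 over 8 lines) and UBB (r = 0.76). Those of UBA1 ran along with UCHL3 (r = 0.77) and UCHL5 (r = 0.75), and UBB ran against UCHL3 (r = -0.73). Within a line all genes share libraries, and with 8 points these values are descriptions. Of 8034 genes tested in all 8 lines with a mean of at least 20 CPM, those most like USP14 were ODR4 (r = 0.99), GOLGB1 (r = 0.99) and PAFAH1B1 (r = 0.99). For UBB they were ABHD5 (r = 0.99), HSPD1 (r = 0.98) and TTBK2 (r = 0.98), of which HSPD1 encodes the mitochondrial chaperonin. For UBA1 they were PDIA6 (r = 0.98), REEP3 (r = 0.98) and EIF2B5 (r = 0.97), and PDIA6 and EIF2B5 encode a folding enzyme of the endoplasmic reticulum and a subunit of a translation initiation factor. UBA6 was close to CD55 (r = 0.98) and NAA35 (r = 0.98), and RPS27A most like CHD4 (r = 0.99), SP3 (r = 0.95) and RPL23 (r = 0.93). UCHL5 was nearest to NIFK (r = 0.97), RAP1GDS1 (r = 0.97) and ATG3 (r = 0.97), and UCHL3 to TMEM14B (r = 0.98), KDM1B (r = 0.98) and METTL5 (r = 0.98). UCHL1 was not tested in 2 lines and has no such pattern here.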

How the data were processed

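Gene counts were deposited by the authors as whole-number, unnormalized counts per gene for all 48 libraries. Per the labels' protocols the libraries came from a stranded total RNA kit, while the design text speaks of mRNA. The submitters' processing notes name bcl2fastq 2.19, FastQC, Trimmomatic, HISAT2, DESeq2 and hg38. The counting program, its annotation and its strand setting are not given in the sources used here. From the counts, edgeR 4.0.16 (R 4.3.3) was run with TMM scaling, filterByExpr and the quasi-likelihood F test, per line on 6 libraries and over all 48 libraries with 16 group means. P-values were adjusted over all genes tested (Benjamini-Hochberg), with a threshold of 0.05. limma 3.58.1 and DESeq2 1.42.0 served as alternatives, beside other scalings, filters, left-out libraries and left-out lines. The contrast over 6 lines for UCHL1 was chosen after seeing the data. The members and gene lists were chosen with earlier results of these data known. Genes outside the members were named by a rule: PSMD14, ADRM1, BAP1, UBA7, the E2 gene with the largest called rise or fall, and 3 genes per member with the highest r among genes with a mean of at least 20 CPM. A few genes that the rule also names are not reported here. Replicates are labelled as biological, and where cultures were not separate, p-values measure the spread between samples. The edgeR fits were tested on simulated data, where that of RPMI (14995 genes) recovered 91% of log2 changes of 1 and 75% of 0.5, and 5.68% of its calls were false.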

Additional observations from a re-analysis of the deposited data

Results flagged for a closer look

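The carfilzomib effect differed between lines for each of the 8 genes by the F test of the joint edgeR fit. Over the 8 lines F was 115 for UBB, 63.5 for USP14, 50.3 for UBA1, 30.96 for UBA6, 24.1 for UCHL5, 22.3 for UCHL3 and 9.87 for RPS27A. Over the 6 lines where UCHL1 was tested its F was 105. Of all genes, 67.7% passed the 8-line test and 67.9% the 6-line test, so passing it does not set these genes apart. UBB had called changes in both directions, higher in 4 lines and lower in 4. UBA6, UCHL5, UCHL3 and RPS27A also had both, while UBA1, USP14 and UCHL1 were called in 1 direction. In PANC-1 and RPMI, UCHL1 passed the filter only through high carfilzomib libraries, so from its DMSO counts only a rise could be called. Its F of 105 includes those lines.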

How the results depend on the processing

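All 36 called pairs of a gene and a line kept their direction under every alternative, and the pairs that lost a call under a setting other than left-out libraries were UCHL5 in RPMI (library totals, -0.14, and a mean of at least 50 counts, -0.12), RPS27A in PANC-1 (no filter, 0.08, and 1 fit of all libraries, 0.08), UBA1 in PANC-1 (1 fit, -0.11) and UBA6 in CAPAN-2 (replicate block, 0.16, adjusted p = 0.0569). Requiring a mean of 50 counts removed UCHL1 in PANC-1 and RPMI. Uncalled changes that turned sign, none of them called after turning, were these: with library totals, UCHL5 in RKO 0.013, UBA1 in H-23 -0.0048, UCHL3 in H-23 -0.021, RPS27A in H-1299 -0.032 and UBA1 in CAPAN-2 -0.0062; with no filter, UCHL3 in H-23 -0.016 and USP14 in H-929 -5.7e-05; with rows of 1 identifier summed, UCHL3 in H-23 -0.0018; and in 1 fit of all libraries, UBA1 in H-23 -0.00052, UCHL3 in H-23 -0.016 and USP14 in H-929 -0.081. UCHL3 in H-1299, uncalled, was called lower with library totals (-0.26), in 1 fit (-0.22) and with a mean of 50 counts (-0.16), and so was RPS27A in H-929 with no filter (-0.24) and in 1 fit (-0.32) and UCHL5 in H-1299 with library totals (-0.17). RPS27A was called higher in CAPAN-2 with no filter (0.19), the DESeq2 test (0.20) and 1 fit (0.21), and in H-1299 with the DESeq2 test (0.09). The myeloma difference of UCHL1 was 0.00019 with DESeq2 size factors, 0.074 with library totals and 0.0051 with a mean of 50 counts, called in none. Leaving out libraries gave ranges that crossed 0 for uncalled changes: UCHL5 in RKO -0.069 to 0.0021, USP14 in DLD-1 -0.18 to 0.00038, RPS27A in H-23 -0.056 to 0.0052, UBA1 in H-23 -0.025 to 0.035, UCHL3 in H-23 -0.086 to 0.075, UCHL5 in H-1299 -0.13 to 0.032, USP14 in PANC-1 -0.14 to 0.14, UBA1 in CAPAN-2 -0.0090 to 0.070, UCHL5 in CAPAN-2 -0.055 to 0.12, UCHL3 in CAPAN-2 -0.13 to 0.0081, USP14 in H-929 -0.013 to 0.19 and the myeloma difference of UCHL1 -0.22 to 0.15. On average over lines, 1 member was higher, and 2 were with DESeq2 size factors, library totals, a mean of 50 counts or without RKO or H-929, 3 without DLD-1 and 0 with lines as the units (limma). The 5 members lower on average became 2 with library totals, 3 without H-929 or RPMI and 0 with lines as the units, and 3 to 4 without a replicate number. UBB averaged 0.032 without RKO and 0.094 without DLD-1, UBA6 -0.025 without H-1299 and UCHL5 0.016 without H-929. Of the 2 members with a higher effect in myeloma, the count was 1 with the replicate block, 0 with lines as the units and 1 to 2 without a replicate number, and the 5 with a lower effect became 1 with lines as the units. With library totals the share of called genes that were higher went from 40.6% to 60.8% in RKO and from 47.5% to 60.3% in DLD-1, the median of all genes in H-1299 shifted by -0.110, and 1 fit shifted that of H-929 by -0.163. Where a call or count changed, the cause was not tested. Replicate numbers did not pair the samples, since same-number correlations ran from -0.063 to 0.049, and the replicate block gave 21 member calls higher and 14 lower, against 22 and 14. Depth limits UCHL1 in RKO, DLD-1, PANC-1 and RPMI. Replicates within 1 line do not show how other lines of a tumour type respond.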
